A study of Mus musculus with 75 samples.

Results

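The genes described here encode enzymes of the TCA cycle and of amino acid breakdown. They were taken by symbol from lists of the pathways, and 44 of the 32245 rows of the count table carried these symbols. Of these, 18 are listed under the TCA cycle and the entry of pyruvate into it, among them the cytosolic Mdh1, and 26 under amino acid breakdown. All 44 passed the filter on low counts in every arm of the study.

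RNA of whole kidneys was sequenced from adult mice 3 days after unilateral ureteral obstruction (UUO), in which the ureter of 1 kidney is tied, and the contralateral (CL) kidneys were the comparison. The ABTAA arm held mice given control IgG (8 CL and 8 UUO libraries) or ABTAA, an antibody that binds ANGPT2 and activates the endothelial receptor TIE2 (7 CL and 7 UUO). In the Veptp arm, VeptpKO mice (6 CL and 8 UUO) had a floxed Veptp gene, listed under its symbol Ptprb, deleted by the tamoxifen-inducible endothelial Cdh5-CreERT2, and VeptpWT mice (7 CL and 8 UUO) were littermates with 1 floxed allele and the same Cre that were not induced, of which the labels give more UUO libraries than the study's methods give mice. In the Pdgfb arm, PdgfbKO mice had floxed Pdgfb deleted throughout the body by tamoxifen-inducible Actb-CreERT2, PdgfbWT mice carried the floxed gene without Cre, and each of the 4 groups had 4 libraries. The knockout lines were of mixed background, the mice of the ABTAA arm were C57BL6/J or wild-type mice of these lines, both sexes were used, all operated mice received carprofen, and per the study's methods the PdgfbWT CL group included kidneys of sham-operated mice, which the labels do not mark.

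The 75 libraries held 172827 to 2341800 counts, with a median of 757897. Among the 3300 pairs of a gene of the 44 and a library, 1 was at 0 counts and 71 were under 10. Library names came in a form with the character _ (30 libraries) and a form without it (45, among them the whole Pdgfb arm), and 24 libraries held 10 or more counts of both Xist and the Y-linked genes, 22 of them with names without it and including all 4 of PdgfbKO UUO. In the Veptp arm, 4 of the 8 numbers that names of a CL and a UUO library share join a VeptpWT with a VeptpKO label. Ptprb averaged 34.1 ± 6.4 CPM (SD, n = 6) in VeptpKO CL against 53.9 ± 21.4 CPM (n = 7) in VeptpWT CL, where CPM are counts scaled to a common library size with TMM factors computed within each arm. Pdgfb was not lower in the CL libraries labelled PdgfbKO (19.0 ± 4.0 CPM) than in PdgfbWT (10.4 ± 6.7 CPM, n = 4 each), and was lower in UUO (37.1 ± 3.1 against 52.9 ± 6.6 CPM). These values do not settle the genotype of each library, and the libraries are called here by their labels. In bulk tissue, fewer cells of a type and less RNA per cell cannot be told apart, which holds for every value given below.

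Pyruvate enters mitochondria and becomes acetyl-CoA through the pyruvate dehydrogenase complex, or oxaloacetate through pyruvate carboxylase, and the TCA cycle oxidises acetyl-CoA to carbon dioxide while it reduces NAD+ and FAD. The carbon skeletons of amino acids enter the same cycle as acetyl-CoA, succinyl-CoA, fumarate, oxaloacetate, or 2-oxoglutarate. In the kidney these enzymes are abundant in the proximal tubule, whose cells are rich in mitochondria and reabsorb filtered amino acids.

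Promoter sequence of RefSeq (GRCm38.p6) was matched for 41 of the 44 genes, 17 of the TCA cycle and 24 of amino acid breakdown. Shown here are the 120 bases before the start of the TCA cycle gene and the 2 amino acid genes that fell most in IgG-treated mice, and of the gene with the lowest adjusted p in PdgfbKO UUO against PdgfbWT UUO, each 5′ to 3′ on the strand of the gene, all of which lie on the minus strand. Capitals mark the GC box, GGGCGG on either strand.
Idh2, chr7:80115351-80115470: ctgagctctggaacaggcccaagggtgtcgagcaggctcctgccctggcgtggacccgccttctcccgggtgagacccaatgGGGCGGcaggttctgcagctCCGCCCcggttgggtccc
Hpd, chr5:123182724-123182843: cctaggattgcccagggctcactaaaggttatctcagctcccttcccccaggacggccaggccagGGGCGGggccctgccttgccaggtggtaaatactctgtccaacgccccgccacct
Gldc, chr19:30175442-30175561: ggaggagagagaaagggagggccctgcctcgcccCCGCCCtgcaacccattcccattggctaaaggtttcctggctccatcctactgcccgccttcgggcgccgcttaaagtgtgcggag
Hibadh, chr6:52640301-52640420: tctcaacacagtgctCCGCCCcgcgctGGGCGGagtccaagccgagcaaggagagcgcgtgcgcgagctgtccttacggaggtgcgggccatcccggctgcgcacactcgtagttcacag
In the window of 250 bases before to 50 after the start, the GC box was found in 26 of the 41 genes (63.4%), against 38.2% of the 27025 genes with a promoter in the table. The TATA box, TATAAA, was found in 2 of the 41, Got2 and Hgd (4.88%), against 15.7% of all genes. The ETS motif CCGGAAGT was found in 1, Dlst (2.44%), against 4.31%, and TCAAGGTCA (ERR) and CAAAGTCCA (HNF4) were found in none, against 0.466% and 0.555%. Both strands were searched, and none of these motifs contains another. These are matches of letters and were not tested.

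The first comparison asked how UUO changed the level of these genes in control mice. In IgG-treated mice all 18 TCA cycle genes and all 26 amino acid genes were lower in UUO than in CL kidneys (edgeR quasi-likelihood test, Benjamini-Hochberg adjusted p under 0.05 over all genes), whereas 18.4% of all genes tested were lower at this threshold. In PdgfbWT mice, again all 18 and all 26 fell, against 19.4% of all genes. The fall was larger for the amino acid genes, with a median log2 fold change of -1.17 in IgG-treated and -1.30 in PdgfbWT mice, than for the TCA cycle genes (-0.91 and -1.10), while the median of all genes was 0.01 and 0.04. In PdgfbWT mice all 4 UUO libraries were below all 4 CL libraries for each of the 44, which held for 17.3% of all genes.

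Idh2, the mitochondrial NADP-dependent isocitrate dehydrogenase, fell most among the TCA cycle genes. In IgG-treated mice its level was 457, 571, and 759.5 CPM (lowest, median, and highest library) in CL and 136, 219.6, and 425 CPM in UUO, so that the groups did not overlap (log2 fold change -1.31 ± 0.22 SE, adjusted p = 9.6e-06). Pcx, pyruvate carboxylase, which refills oxaloacetate, stood at 244, 338, and 476 CPM in CL and at 107, 156, and 263 CPM in UUO (-1.11 ± 0.17, adjusted p = 4.5e-06), with the highest UUO library within the range of CL. The cytosolic malate dehydrogenase Mdh1, part of the malate-aspartate shuttle, fell from 1636, 1989.6, and 2663 CPM in CL to 723, 967, and 1373 CPM without overlap (-1.06 ± 0.16, adjusted p = 2.2e-06). Cs, citrate synthase, which opens the cycle, had the smallest fall, from 266, 302, and 342 CPM to 157, 198, and 217 CPM (-0.63 ± 0.11, adjusted p = 1.6e-05), again without overlap.

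The remaining TCA cycle genes in IgG-treated mice lay between these. The pyruvate dehydrogenase subunits Pdha1, Pdhb, and Dlat had log2 fold changes of -0.97, -0.96, and -0.72, and Dld, the dihydrolipoamide dehydrogenase shared with other 2-oxoacid dehydrogenases and the glycine cleavage system, of -0.88. The subunits of the NAD-dependent isocitrate dehydrogenase, Idh3a, Idh3b, and Idh3g, had -0.91, -0.96, and -0.90. Ogdh and Dlst, of the 2-oxoglutarate dehydrogenase complex, had -0.84 and -0.76, and the succinyl-CoA ligase subunits Suclg1, Suclg2, and Sucla2 had -1.01, -0.81, and -1.01. Fumarase (Fh1) and the mitochondrial malate dehydrogenase (Mdh2) closed the cycle at -0.87 and -0.89.

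Among the amino acid genes Hpd, Gldc, and Aass had the largest falls. Hpd, which makes homogentisate in tyrosine breakdown, had few counts, at 17.1, 47.5, and 77.4 CPM in CL and 2.71, 5.94, and 20.8 CPM in UUO of IgG-treated mice (log2 fold change -2.90 ± 0.43 SE, 7.47-fold lower, adjusted p = 1.4e-06), and 1 UUO library reached into the CL range. Gldc, the decarboxylase of the glycine cleavage system, fell from 65, 98.2, and 194 CPM to 12.1, 17.8, and 57.4 CPM (-2.03 ± 0.32, adjusted p = 4.1e-06). Aass, which carries out the first steps of lysine breakdown, fell from 273, 456, and 704 CPM to 104, 141, and 207 CPM (-1.60 ± 0.18, adjusted p = 1.7e-08). Neither Gldc nor Aass overlapped between CL and UUO. Prodh2, which oxidises hydroxyproline, had the smallest fall of the list, from 54.7, 155, and 209 CPM to 39.4, 75.7, and 164 CPM with wide overlap (-0.73 ± 0.26, adjusted p = 0.025). This call was lost in 8 of 39 alternatives, which were library totals without TMM factors, names without the character _, libraries with both Xist and Y-linked counts left out, and leaving out IgG CL replicate 4 or 5 or IgG UUO replicate 6, 7, or 8, with values down to -0.37.

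The branched-chain amino acid genes formed the longest chain of these. The branched-chain 2-oxoacid dehydrogenase subunits Bckdha, Bckdhb, and Dbt had log2 fold changes of -1.05, -1.52, and -1.17 in IgG-treated mice. The leucine enzymes Ivd, Mccc1, Mccc2, and Auh had -1.16, -1.21, -1.21, and -0.83. Acadsb, which acts on the isoleucine skeleton, had -1.24, and the valine enzymes Hibch, Hibadh, and Aldh6a1 had -0.74, -1.11, and -1.58. Further on, Pcca, Pccb, and Mcee, which turn propionyl-CoA into methylmalonyl-CoA and its epimer, had -1.04, -0.84, and -1.25.

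Outside that chain, Glud1, Got1, and Got2, which link glutamate and aspartate to the cycle, fell by less than the median of the list in IgG-treated mice (-0.76, -0.97, and -0.80). Prodh, of proline breakdown, had -1.34, Hgd and Fah, which follow Hpd, had -1.07 and -1.19, and Amt, which follows Gldc, had -1.05. Adhfe1, a transhydrogenase that oxidises 4-hydroxybutyrate, fell from 209, 329, and 515 CPM to 103, 120.4, and 151 CPM with no overlap (-1.46 ± 0.17 SE, adjusted p = 3.5e-08).

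**Figure D1:**
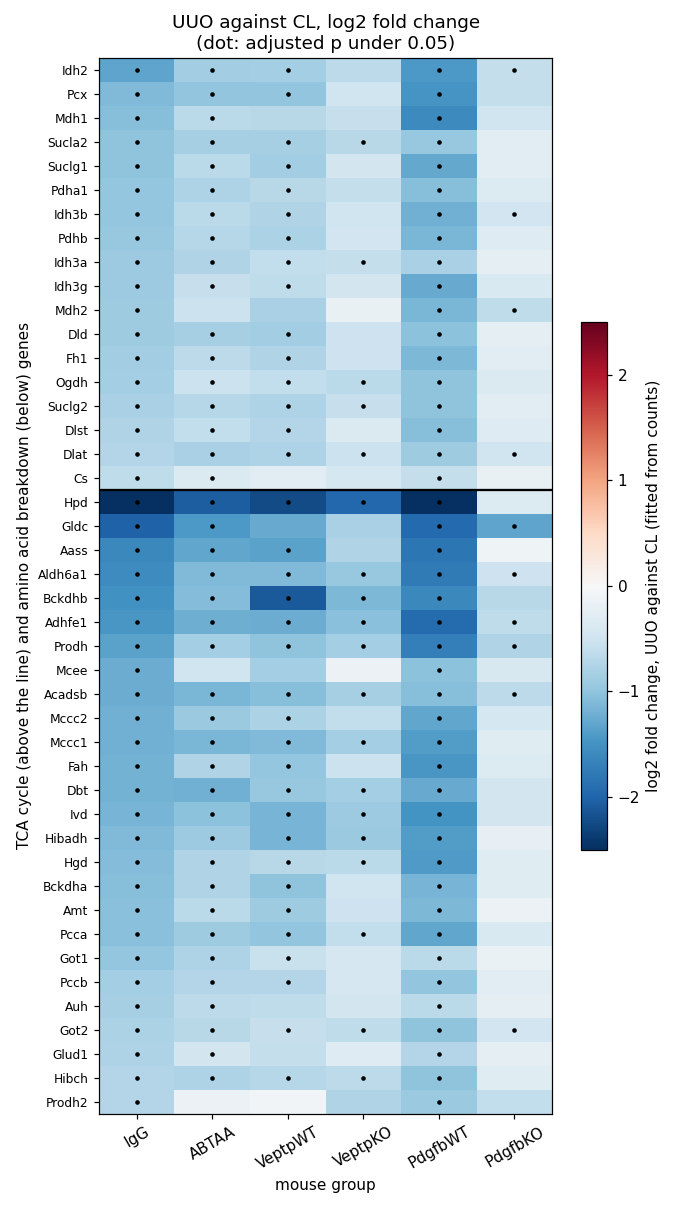
Log2 fold change of UUO against CL kidneys for the 44 genes (rows, TCA cycle above the line) in the 6 mouse groups (columns), on a colour scale whose end colour also stands for values past it, with a dot where the adjusted p was under 0.05. Every cell is blue or near white, and dots fill the IgG and PdgfbWT columns, whereas PdgfbKO has 10.

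In the other mouse groups the fitted values lay below 0 for all 44 genes too, but the number called differed. In ABTAA-treated mice 17 TCA cycle and 24 amino acid genes fell (12.5% of all genes were called lower), all but Mdh2, Mcee, and Prodh2. The call of Cs there (-0.36, edgeR quasi-likelihood test, adjusted p = 0.017) was lost in 5 of 39 alternatives. These were library totals without TMM factors, no filter on low counts, the exact test, names without the character _, and libraries with both Xist and Y-linked counts left out. In VeptpWT mice 15 and 21 fell (8.38% of all genes), and Cs, Mdh1, Mdh2, Mcee, Auh, Glud1, Prodh2, and Gldc did not pass. In VeptpKO mice 5 and 14 fell (3.47% of all genes), with median log2 fold changes of -0.52 and -0.72 in the TCA cycle and amino acid lists. In PdgfbKO mice 4 and 6 fell (2.40% of all genes), with medians of -0.34 and -0.36. The medians were -0.70 and -0.87 in ABTAA-treated and -0.76 and -0.97 in VeptpWT mice.

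The count in VeptpKO mice depended on the fit. It was 10 of 44 by edgeR's exact test (2.54% of all genes), 25 by DESeq2 (3.36%), 12 on library totals without TMM factors (2.05%), and 42 with the form of the library name as a covariate (10.8%). Dlat, Aldh6a1, Acadsb, Got2, Prodh, and Adhfe1 were called lower in all 6 mouse groups. Mcee and Prodh2 were called in 2 of them, IgG and PdgfbWT.

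In PdgfbKO mice the genes that fell were Idh2 (-0.60), Idh3b (-0.48), Mdh2 (-0.64), and Dlat (-0.50) of the TCA cycle and Aldh6a1 (-0.52), Acadsb (-0.65), Got2 (-0.48), Prodh (-0.75), Gldc (-1.33), and Adhfe1 (-0.64) of amino acid breakdown (edgeR quasi-likelihood test, adjusted p from 0.000161 to 0.0392). All 4 UUO libraries were below all 4 CL libraries for 9 TCA cycle and 12 amino acid genes, against 5.13% of all genes. Without the PdgfbKO UUO library of replicate 4, 6 of the 44 were called in place of 10 (0.857% of all genes).

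The next comparison asked whether obstructed kidneys differed between PdgfbKO and PdgfbWT mice. In PdgfbKO UUO all 18 TCA cycle genes and 25 of 26 amino acid genes were higher than in PdgfbWT UUO (edgeR quasi-likelihood test, adjusted p under 0.05), whereas 12.0% of all genes were higher. The median log2 fold change was 0.70 for the TCA cycle and 0.84 for amino acid breakdown, against -0.02 for all genes. The share of counts of Gm42418 and AY036118, genes that overlap ribosomal RNA sequence, also stood apart, at 5.63, 7.34, 5.41, and 7.18% in the PdgfbWT UUO and 10.7, 8.25, 7.67, and 9.95% in the PdgfbKO UUO libraries, and its part was not tested. Counts of both Xist and the Y-linked genes reached 10 in 4 of 4 PdgfbKO UUO, 2 of 4 PdgfbWT UUO, 2 of 4 PdgfbWT CL, and 0 of 4 PdgfbKO CL libraries, and whether such libraries held RNA of more than 1 mouse was not tested. For 16 TCA cycle and 23 amino acid genes all 4 PdgfbKO libraries were above all 4 PdgfbWT libraries, as for 12.7% of all genes. In the CL kidneys of these mice the same test called none of the 44 and 0% of all genes. There 1 of the 44 and 3.46% of all genes had an unadjusted p under 0.05, and DESeq2 and the exact test of edgeR called 0.

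Idh2 was at 203, 229, 246, and 274 CPM in the 4 PdgfbWT UUO libraries and at 401, 401, 464, and 504 CPM in PdgfbKO UUO, with CL kidneys at 603 to 697 CPM in PdgfbWT and 605 to 705 CPM in PdgfbKO. Thus PdgfbKO UUO lay between PdgfbWT UUO and CL without overlap with either (0.89 ± 0.12 SE, 1.85-fold, adjusted p = 1.8e-05). Suclg1, a subunit of succinyl-CoA ligase, was at 262, 315, 328, and 353 CPM in PdgfbWT UUO and 525.8, 534, 584, and 620.5 CPM in PdgfbKO UUO (0.84 ± 0.12, adjusted p = 2.1e-05). Its highest PdgfbKO UUO library was above the lowest PdgfbKO CL library, at 615 CPM.

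Mdh1 was at 612, 699, 768, and 797 CPM in PdgfbWT UUO and 1117, 1410.0, 1497, and 1822 CPM in PdgfbKO UUO (1.02 ± 0.16, adjusted p = 5.6e-05). Pcx was at 100.05, 112, 146, and 159.9 CPM against 191, 298, 304, and 313 CPM (1.08 ± 0.21, adjusted p = 0.00073), the widest gap in the TCA cycle list, which includes pyruvate entry. Cs again had the narrowest, at 161, 170.5, 171, and 181 CPM against 210.2, 218, 223, and 244 CPM (0.39 ± 0.12, adjusted p = 0.018). All 3 were without overlap. The call of Cs was lost in 4 of 20 alternatives, which were library totals without TMM factors (0.12), no filter on low counts, and leaving out PdgfbWT UUO replicate 2 or PdgfbKO UUO replicate 3.

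Hibadh, the 3-hydroxyisobutyrate dehydrogenase of valine breakdown, had the lowest adjusted p of the 44, at 107, 112, 123, and 127 CPM in PdgfbWT UUO and 227, 262, 267, and 294 CPM in PdgfbKO UUO (1.15 ± 0.12 SE, 2.21-fold, adjusted p = 5.7e-07). Its PdgfbKO UUO libraries overlapped those of PdgfbKO CL, at 263 to 315 CPM. Adhfe1 was at 66.5, 76.8, 86.2, and 94.0 CPM against 151, 173, 179, and 210.2 CPM (1.12 ± 0.14, adjusted p = 3.1e-06), below the 4 PdgfbKO CL libraries at 250.2 to 313 CPM.

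Hpd was the gene with the widest gap and the widest error, at 1.25, 3.92, 5.95, and 14.3 CPM in PdgfbWT UUO and 20.0, 27.3, 28.2, and 30.3 CPM in PdgfbKO UUO (1.91 ± 0.45, adjusted p = 0.0037). Aass was at 106, 109, 112, and 149 CPM against 241, 323, 333, and 427 CPM (1.45 ± 0.21, adjusted p = 2.0e-05). Gldc was at 19.4, 23.8, 35.7, and 38.2 CPM against 51.6, 57.8, 66.7, and 78.6 CPM (1.12 ± 0.21, adjusted p = 0.00055). For each of these 3 the UUO groups did not overlap, and Gldc differed from the other 2 in that its PdgfbKO UUO libraries also stayed below all PdgfbKO CL libraries, at 123 to 202 CPM. Prodh2 was the only gene of the 44 that was not called, at 38.3, 56.8, 102, and 105 CPM against 80.1 to 131 CPM (0.46, 95% interval -0.0019 to 0.93, adjusted p = 0.19).

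**Figure D2:**
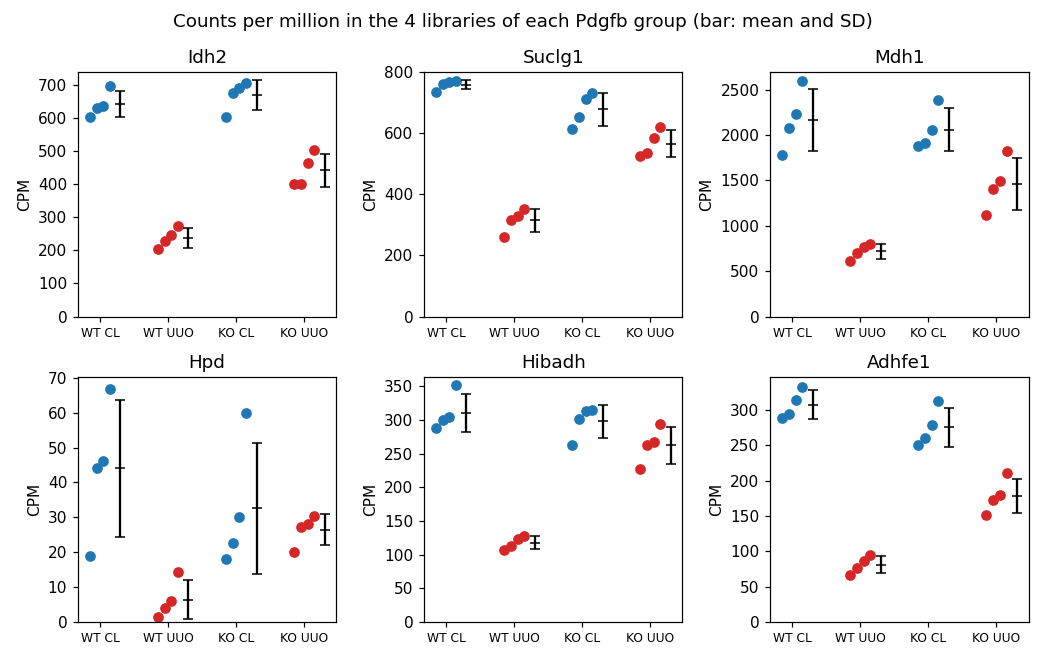
CPM of 6 genes (panels) in the 4 libraries of each Pdgfb group, CL in blue and UUO in red, with the mean and SD beside the points. In every panel the 4 PdgfbKO UUO libraries lie above the 4 PdgfbWT UUO libraries, and for Suclg1, Hibadh, and Hpd they overlap with PdgfbKO CL. Idh2, Suclg1, Hibadh, and Adhfe1 were named for their low adjusted p in PdgfbKO UUO against PdgfbWT UUO.

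**Figure D3:**
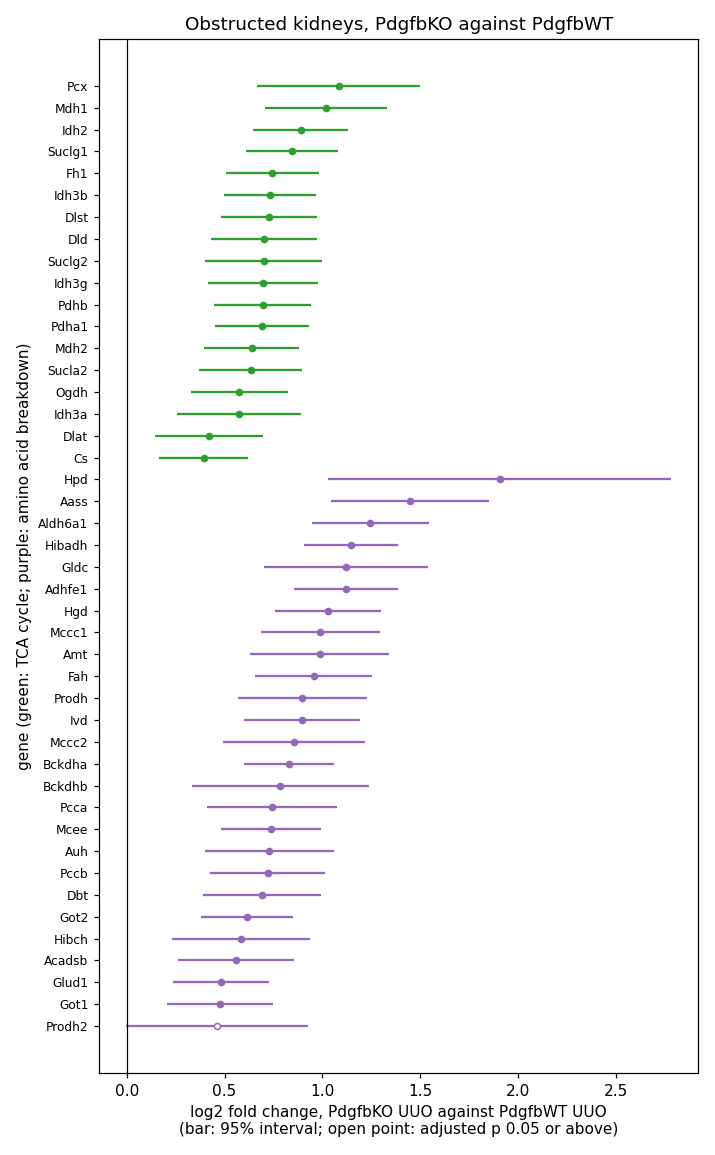
Log2 fold change of PdgfbKO UUO against PdgfbWT UUO (x axis) for the 44 genes (y axis, TCA cycle in green, amino acid breakdown in purple), with 95% intervals and open points where the adjusted p was 0.05 or above. All points lie right of 0, from 0.39 (Cs) to 1.91 (Hpd), and Prodh2 alone is open.

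The difference between the responses to UUO, tested as the interaction of kidney and mouse group, was called for 13 TCA cycle and 17 amino acid genes, all with a smaller fall in PdgfbKO, against 6.66% of all genes. It was largest for Hpd (2.22 ± 0.59, adjusted p = 0.019), Aass (1.70 ± 0.29, adjusted p = 0.00055), and Adhfe1 (1.28 ± 0.19, adjusted p = 0.00013), and in the TCA cycle list for the cytosolic Mdh1 (1.09 ± 0.22, adjusted p = 0.0025) and for Suclg1 (1.01 ± 0.17, adjusted p = 0.00054). For Gldc, which had -1.95 ± 0.21 in PdgfbWT and -1.33 ± 0.20 in PdgfbKO, it was not called (0.62, 95% interval 0.056 to 1.18, adjusted p = 0.20), nor for the glutamate and aspartate genes Glud1, Got1, and Got2 (0.50, 0.49, and 0.53). The comparisons share PdgfbWT UUO libraries. Without TMM factors the median of all genes in PdgfbKO UUO against PdgfbWT UUO shifted from -0.02 to -0.28, and 30 of the 44 were called higher (6.11% of all genes) with list medians of 0.42 and 0.57, while the interaction was called for 14 (2.88% of all genes).

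In the ABTAA and Veptp arms obstructed kidneys were compared in the same way. The edgeR quasi-likelihood test called none of the 44, and 0% of all genes, between ABTAA UUO and IgG UUO or between VeptpKO UUO and VeptpWT UUO. Neither DESeq2 nor the exact test of edgeR called any of the 44. At an unadjusted p under 0.05 there were 7 of 44 in the first and 4 of 44 in the second comparison, against 3.59% and 3.56% of all genes. The fitted values were above 0 for 17 of 18 TCA cycle and 25 of 26 amino acid genes in ABTAA UUO, with medians of 0.25 and 0.27, and for 18 of 18 and 23 of 26 in VeptpKO UUO, with medians of 0.19 and 0.21. Of all genes 51.6% and 51.1% were above 0, with a median of 0.01 in each.

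The intervals of these differences were wide. Idh2 in UUO was at 172, 247, and 614 CPM (lowest, median, and highest) in ABTAA and 136, 219.6, and 425 CPM in IgG, with a log2 difference of 0.42 (95% interval -0.017 to 0.85). In the Veptp arm it was at 199.5, 348, and 573 CPM in VeptpKO UUO and 184, 287, and 451 CPM in VeptpWT UUO (0.23, 95% interval -0.22 to 0.67). Hpd had 0.84 (-0.16 to 1.84) in the first and 0.91 (-0.073 to 1.90) in the second comparison, and Cs had 0.037 (-0.18 to 0.25) and 0.034 (-0.24 to 0.30). In PdgfbKO against PdgfbWT the same genes had 0.89, 1.91, and 0.39, and whether the arms differed was not tested.

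In CL kidneys none of the 44 was called for ABTAA against IgG or VeptpKO against VeptpWT (0% of all genes in each, edgeR quasi-likelihood test), with 1 and 0 at an unadjusted p under 0.05 (3.25% and 1.92% of all genes), and none by DESeq2 or the exact test. The difference of the UUO response was also called for none, with 0% of all genes in each arm, 2 and 0 of the 44 at an unadjusted p under 0.05 (3.37% and 2.72% of all genes), and none by DESeq2. Its medians were 0.22 and 0.29 for the TCA cycle and amino acid lists in the ABTAA arm and 0.22 and 0.24 in the Veptp arm.

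The level of each list was summarised per library as the mean of log2(CPM + 1) over its genes, and levels of different arms rest on separate TMM factors. For the amino acid list it was 7.59 ± 0.09 (SD, n = 8) in IgG CL and 6.35 ± 0.24 (n = 8) in IgG UUO, 7.58 ± 0.11 and 6.65 ± 0.35 (n = 7 each) in ABTAA, and 7.59 ± 0.04 and 6.25 ± 0.19 (n = 4 each) in PdgfbWT. VeptpWT had 7.64 ± 0.10 (n = 7) and 6.64 ± 0.29 (n = 8), and VeptpKO 7.64 ± 0.16 (n = 6) and 6.87 ± 0.36 (n = 8). PdgfbKO had 7.57 ± 0.04 in CL and 7.15 ± 0.08 in UUO (n = 4 each), with UUO libraries from 7.08 to 7.25. The CL means ranged from 7.57 to 7.64.

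For the TCA cycle list the levels were 8.71 ± 0.08 and 7.77 ± 0.19 in CL and UUO of IgG, 8.71 ± 0.10 and 8.00 ± 0.27 of ABTAA, and 8.77 ± 0.01 and 7.66 ± 0.12 of PdgfbWT. VeptpWT had 8.68 ± 0.21 and 7.95 ± 0.22, VeptpKO 8.66 ± 0.11 and 8.10 ± 0.40, and PdgfbKO 8.74 ± 0.11 and 8.37 ± 0.10. Pooled over name forms, PdgfbWT had the lowest and PdgfbKO the highest UUO mean in both lists, but among names without the character _ the TCA cycle mean of VeptpKO UUO (8.41) was above that of PdgfbKO UUO (8.37). VeptpKO UUO had the largest SD in both lists, and its libraries, from 7.58 to 8.67 in the TCA cycle list, reached above and below those of PdgfbKO UUO, from 8.28 to 8.50.

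**Figure D4:**
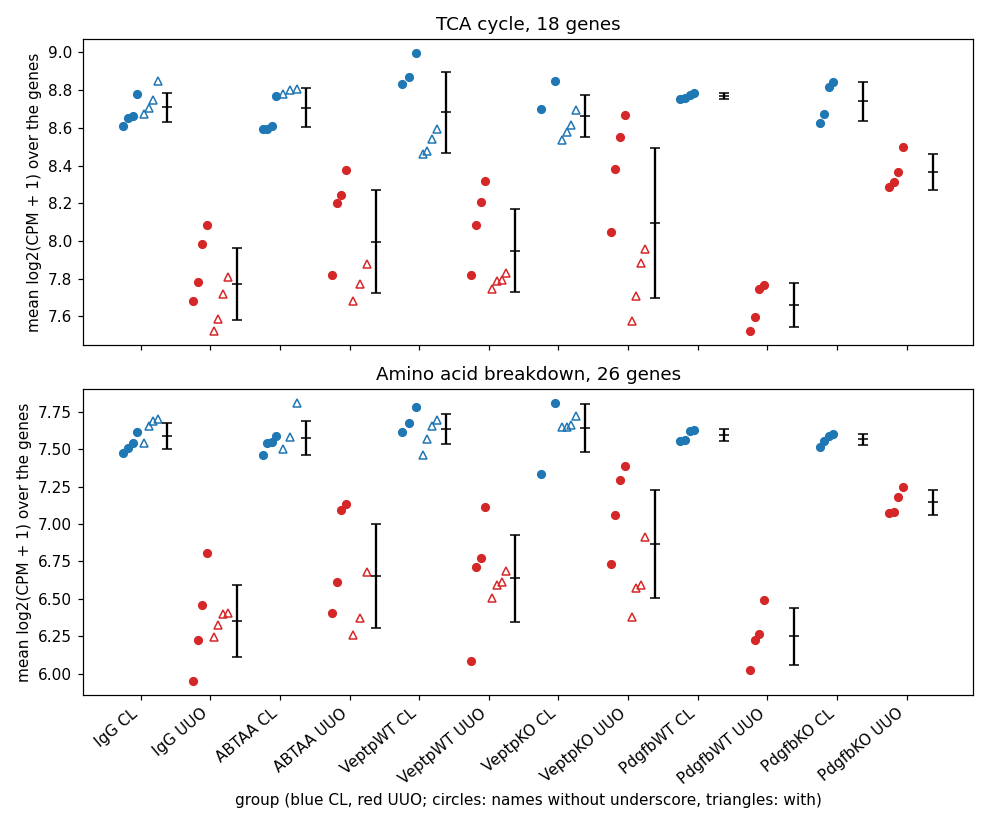
Mean log2(CPM + 1) over the 18 TCA cycle genes (top) and the 26 amino acid genes (bottom) in each library of the 12 groups, CL in blue and UUO in red, circles for names without and triangles for names with the character _, bars for the mean and SD of the group. In the top panel the circles of VeptpKO UUO (8.05 to 8.67) lie above its triangles (7.58 to 7.96), and the 4 PdgfbKO UUO libraries lie above the 4 PdgfbWT UUO libraries in both panels.

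In all 4 UUO groups that held both forms of the library name, the TCA cycle mean was higher without the character _, whereas the amino acid mean differed little in the control groups. The CL groups did not all lie in that order, with TCA cycle levels without and with the character _ of 8.90 ± 0.09 and 8.52 ± 0.06 in VeptpWT CL (3 and 4 libraries), 8.77 ± 0.11 and 8.61 ± 0.07 in VeptpKO CL (2 and 4), 8.68 ± 0.07 and 8.74 ± 0.08 in IgG CL (4 and 4), and 8.64 ± 0.08 and 8.80 ± 0.01 in ABTAA CL (4 and 3). In VeptpKO UUO the TCA cycle level was 8.41 ± 0.27 in the 4 libraries without and 7.78 ± 0.17 in the 4 with the character _, and the amino acid level was 7.12 ± 0.29 and 6.61 ± 0.22. In ABTAA UUO the levels were 8.16 ± 0.24 and 7.78 ± 0.10 for the TCA cycle and 6.81 ± 0.36 and 6.44 ± 0.22 for amino acid breakdown (4 and 3 libraries). In the control groups the amino acid level was 6.36 ± 0.36 and 6.34 ± 0.07 in IgG UUO and 6.67 ± 0.43 and 6.60 ± 0.07 in VeptpWT UUO, and the TCA cycle level 7.88 ± 0.18 and 7.66 ± 0.13, and 8.11 ± 0.21 and 7.79 ± 0.03 (4 libraries each). Within names with the character _ alone 41 of the 44 were called lower with UUO in VeptpKO mice (11.2% of all genes), and within names without alone 0 were (0% of all genes), with 6 at an unadjusted p under 0.05 (6.93% of all genes), where CL had 2 libraries and DESeq2 was not run. In ABTAA-treated mice 40 were called with and 20 without it (12.9% and 4.38% of all genes), in IgG-treated mice 43 and 41 (15.4% and 12.6%), and in VeptpWT mice 42 and 30 (12.3% and 6.69%).

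The difference of the UUO response between the name forms was called for none of the 44 by edgeR's quasi-likelihood test, in the ABTAA arm (0% of all genes) or the Veptp arm (0.369% of all genes). At an unadjusted p under 0.05 there were 24 and 8, against 9.33% and 9.39% of all genes, and DESeq2 called 12 and 0 lower, against 4.80% of the 2188 and 0.384% of the 14072 genes for which it gave an adjusted p. The fall was larger with the character _ for 18 of 18 TCA cycle and 23 of 26 amino acid genes in the ABTAA arm and for 17 and 23 in the Veptp arm, against 48.0% and 49.5% of all genes. The lowest adjusted p in the Veptp arm belonged in each list to Fh1 (-0.39 ± 0.18, adjusted p = 0.51) and Hpd (-1.79 ± 0.54, adjusted p = 0.20). Fh1 in VeptpKO UUO was at 234 to 343 CPM without and 154 to 209 CPM with it, and Hpd at 17.1 to 50.4 and 4.60 to 14.0 CPM, without overlap between the forms. In VeptpWT UUO both overlapped, with Fh1 at 169 to 305 and 163 to 195 CPM and Hpd at 0 to 27.4 and 3.37 to 9.33 CPM, and these genes were named for their low p in this contrast. The level in CL kidneys itself differed between the name forms for 19 of the 44 in the ABTAA arm (27.2% of all genes) and 22 in the Veptp arm (44.2%), in both directions. The Gm42418 and AY036118 share was 9.18 to 21.8% without and 0.325 to 0.778% with the character _ in the Veptp arm, and 7.32 to 18.7% and 3.89 to 5.91% in the ABTAA arm, so that the forms did not overlap. The labels do not say what the name form stands for, and the part of the name form or of this share in the differences was not tested.

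Of the markers of the proximal tubule and of the other tubule segments, many but not all were called lower with UUO in the same libraries. Of 10 proximal tubule markers, 9 were called lower in IgG-treated (18.4% of all genes) and 10 in PdgfbWT mice (19.4%). In ABTAA 8 were (12.5%), in VeptpWT 6 (8.38%), in VeptpKO 5 (3.47%), and in PdgfbKO mice 4 (2.40%). Of the 10, 8 were called higher in PdgfbKO UUO than in PdgfbWT UUO, against 12.0% of all genes. Their summed level was 6093 to 10376 CPM in IgG CL and 3054 to 4719.8 CPM in IgG UUO, 6994 to 9209.8 and 3610.2 to 6051 CPM in ABTAA, 7739 to 10254 and 3213 to 5612 CPM in VeptpWT, and 7781 to 11919 and 3819 to 7467 CPM in VeptpKO. In PdgfbWT it was 8034 to 8527 CPM in CL and 2174 to 3010.1 CPM in UUO, and in PdgfbKO 7585 to 8969 and 3824 to 7666 CPM, so that the UUO groups of the Pdgfb arm did not overlap. Of these 10 only Slc7a13 was at 0 counts in any library, in 4 of 75, and of the markers of the other tubule segments only Pvalb was, in 16. The thick ascending limb, the distal convoluted tubule, and the collecting duct had 4 markers each. Of these, 3 of each were called lower in IgG-treated and in PdgfbWT mice (18.4% and 19.4% of all genes). Likewise 3 of each were called higher in PdgfbKO UUO than in PdgfbWT UUO (12.0% of all genes). Their summed levels in PdgfbWT UUO and PdgfbKO UUO were 1954 to 2362 and 3514 to 5098 CPM for the thick ascending limb, 214 to 262 and 723 to 952 CPM for the distal convoluted tubule, and 119 to 215 and 241 to 320.3 CPM for the collecting duct, without overlap. In IgG-treated mice their medians were 6951 in CL and 2954 CPM in UUO, 1336 and 202 CPM, and 376 and 139.9 CPM. The summed level of 4 fibroblast markers was 54.6 to 121 CPM in CL and 319 to 436 CPM in UUO of PdgfbWT, and 55.0 to 102 and 126 to 260.2 CPM of PdgfbKO. That of 4 leukocyte markers was 27.7 to 36.9 CPM in CL and 116 to 175 CPM in UUO of PdgfbWT, and 17.5 to 50.8 and 76.7 to 103 CPM of PdgfbKO, with Cd68, C1qa, and Adgre1 at 0 counts in 11, 2, and 1 of the 75 libraries. In VeptpKO UUO the proximal tubule sum was 5902 to 7467 CPM in libraries without and 3819 to 6078 CPM in libraries with the character _ in their name. There the thick ascending limb sum was 4142 to 6415 and 1282 to 1978 CPM and the distal convoluted tubule sum 539 to 1203 and 255 to 455 CPM, both without overlap. The summed level of 4 endothelial markers was 124 to 167 CPM in PdgfbWT UUO and 76.0 to 131 CPM in PdgfbKO UUO, and 2 podocyte markers were at 48.3 to 71.4 and 46.7 to 74.2 CPM. Adipocyte markers reached from 87.2 to 94.0 and from 24.7 to 336 CPM, with Adipoq, Plin1, and Cfd at 0 counts in 24, 49, and 16 of the 75 libraries. The part of these markers in the changes of the 44 genes was not tested.

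**Figure D5:**
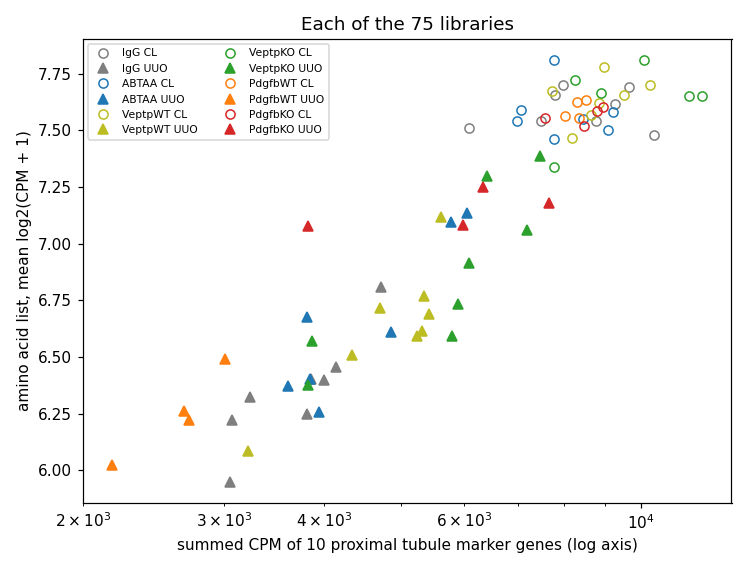
Level of the amino acid list (y axis, mean log2(CPM + 1) over 26 genes) against the summed CPM of 10 proximal tubule markers (x axis, log scale) in the 75 libraries, with open circles for CL and triangles for UUO. PdgfbWT UUO libraries lie lowest on the x axis (2174 to 3010.1 CPM), and PdgfbKO UUO libraries lie among the highest of the UUO libraries on the y axis.

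Other genes of the same pathways were counted over whole lists. Of 12 further TCA cycle and pyruvate genes, 11 were tested in the ABTAA arm and 12 in the others. In IgG-treated mice 10 fell, against 18.4% of all genes. Among them were the succinate dehydrogenase subunits Sdha, Sdhb, Sdhc, and Sdhd (-0.85, -1.07, -1.10, and -0.95), and Pck1, the cytosolic PEP carboxykinase of gluconeogenesis (-1.64). The mitochondrial PEP carboxykinase Pck2 was the 1 that rose, by 0.92 in IgG-treated, 0.78 in ABTAA-treated, 0.92 in VeptpWT, 1.12 in VeptpKO, and 1.33 in PdgfbWT mice, and had 0.75 in PdgfbKO mice, where it was not called. In PdgfbKO UUO against PdgfbWT UUO 10 of 12 were higher, against 12.0% of all genes, with 1.34 for Pck1 and 0.96 for Sdhb.

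Of 42 further amino acid genes, 35 were tested in the ABTAA and Pdgfb arms and 36 in the Veptp arm. In IgG-treated mice 30 fell (18.4% of all genes) and 1 rose, Gpt2, the mitochondrial alanine aminotransferase (0.58), whose cytosolic counterpart Gpt fell (-1.73). In PdgfbWT mice 30 fell (19.4% of all genes) and in PdgfbKO mice 4 (2.40%). Between obstructed kidneys, 27 were higher in PdgfbKO UUO than in PdgfbWT UUO (12.0% of all genes), including Haao, of tryptophan breakdown (1.52). For the rises of Pck2 and Gpt2 with UUO, the share of all genes called higher is not reported here.

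Of the 8 regulators of the pyruvate and branched-chain dehydrogenases, 7 were tested in the ABTAA arm. The pyruvate dehydrogenase kinases Pdk1 and Pdk2, which inactivate that complex, fell in IgG-treated mice (-1.40 and -1.28), as did the phosphatases Pdp2 (-0.94) and Ppm1k (-0.95), which reactivate the pyruvate and branched-chain complexes. Of all genes 18.4% were called lower there. Pdk4 had 0.76 in IgG-treated and 0.41 in PdgfbWT mice and was called in VeptpWT mice alone (1.11). Bckdk, the kinase that inactivates the branched-chain complex, had -0.48 in IgG-treated mice and was called lower in PdgfbWT mice (-0.43). In PdgfbKO UUO against PdgfbWT UUO 1 of 8 was called, Pdk2 (0.88), which is near the share of all genes called higher (12.0%).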

How the data were processed

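Whole-kidney RNA was sequenced from UUO and CL kidneys of 12 groups. Per the study's methods and the labels, the authors split every sample over 4 wells, merged these, aligned reads to mm10 with STAR 2.7.3a, removed duplicates with UMI-tools 1.1.4, and counted genes with featureCounts (Subread 1.4.6-p5), and the deposited values are raw counts per gene. The genes and lists described here were chosen with earlier results of these data known. Counts of each arm were fitted over its 4 groups with edgeR 4.0.16 (glmQLFit and glmQLFTest, TMM factors, filterByExpr), in R 4.3.3, and p-values were adjusted by Benjamini-Hochberg over all genes tested (9579 genes for ABTAA, 11916 for Veptp, and 10923 for Pdgfb) and called under 0.05. The SE was the log2 fold change over the root of F, and intervals were 1.96 SE. Scripts were tested on simulated data. Values per library are given, in each list, for the 3 genes with the largest and the 1 with the smallest fall in IgG-treated mice, the 2 with the lowest adjusted p in PdgfbKO UUO against PdgfbWT UUO, and the 1 with the lowest adjusted p for the name forms of the Veptp arm. DESeq2 1.42.0, edgeR's exact test, other scaling and filters, left-out libraries, name forms, and replicate blocks were alternatives. In the ABTAA arm, the 3 numbers shared by CL and UUO libraries of 1 mouse group paired them (correlations of deviations 0.387, 0.200, and 0.160). The labels do not state that libraries of a group came from separate mice, so p-values measure the spread between these libraries. Per the study's methods the animal was the experimental unit, and its contralateral kidney was the internal control. The main fit had a mean for each group and no term for the mouse. It therefore treated CL and UUO kidneys of the same mouse as independent. Values of some genes of the wider pathway lists are not reported here.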

Additional observations from a re-analysis of the deposited data

Results flagged for a closer look

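Single libraries stood apart from the rest of their group in 6 of 168 groups of values tested with Dixon's criterion, which chance meets in about 1 of 20. Pcx was at 142.229 CPM in VeptpKO UUO replicate 6, against 225 to 337 CPM in the other 7 libraries, and at 190.626 CPM in PdgfbKO UUO replicate 4, against 298 to 313 CPM in the other 3. Aass was at 640.66 CPM in PdgfbWT CL replicate 1 (others 328 to 364 CPM) and at 148.758 CPM in PdgfbWT UUO replicate 3 (others 106 to 112 CPM). The amino acid list level was 7.80895 in ABTAA CL replicate 5 (others 7.46 to 7.59) and 7.33588 in VeptpKO CL replicate 2 (others 7.65 to 7.81). The response to UUO differed between PdgfbKO and PdgfbWT mice for 30 of the 44 genes by the interaction test, as given above.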

How the results depend on the processing

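Of 44 genes, the number called lower with UUO in VeptpKO mice (19) moved most: 12 without TMM factors, 10 by the exact test, 42 with the name form as a covariate, 41 and 0 within names with and without the character _, and 42 with the replicate block, whose numbers did not meet the pairing rule in the Veptp arm (correlations 0.058 to 0.39 for 4 numbers within a genotype label, and 0.13 to 0.43 for 4 that join a VeptpWT with a VeptpKO label, with 10 of 16 libraries best with their own number). In ABTAA-treated mice the number called lower was 20 within names without the character _. For these counts the shares of all genes are given above, except for the replicate block, where the share is not reported here. The difference between name forms was called for 4 (no filter) and 12 (DESeq2) in the ABTAA arm and 1 (no filter) in the Veptp arm, and the Pdgfb interaction for 14 without TMM factors. Without the filter the share of all genes called is not reported here, so these counts cannot be set against it. The replicate block in the ABTAA arm changed no count by over 1.5 times. No block was fitted in the Pdgfb arm, whose names lack the character _ and a number after it. Leaving out 1 library gave 6 to 13 in PdgfbKO mice (6 without PdgfbKO UUO replicate 4), 16 to 25 in VeptpKO, 38 to 43 in PdgfbKO UUO against PdgfbWT UUO, 0 to 3 and 0 to 1 for the name forms of the ABTAA and Veptp arms (3 without ABTAA UUO replicate 3, 1 without VeptpWT CL replicate 2).

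The sign of some values that were not called changed. Without single libraries, the UUO response in PdgfbKO mice ranged from -0.2311 to 0.0619 for Aass and from -0.5937 to 0.2805 for Hpd, and that of Prodh2 in VeptpWT mice from -0.2332 to 0.184. Prodh2 had 0.0922 without TMM factors, 0.18 within names with the character _, and 0.2585 without the libraries holding both Xist and Y-linked counts in VeptpWT. The log2 fold change of Prodh2, UUO against CL, ABTAA, was 0.0362 and 0.0264 under the latter 2. Leaving out those libraries was chosen after seeing the data and could not be done in PdgfbKO UUO, where all 4 held both. The cause of these changes was not tested. Depth limits the 71 of 3300 values under 10 counts.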
